A study of Homo sapiens with 20 samples.

Results

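MYBL2, FOXM1 and 8 further genes of the DREAM and MuvB complexes (LIN9, LIN37, LIN52, LIN54, RBL1, RBL2, TFDP1 and TFDP2) were followed in 5 human cancer cell lines exposed to torkinib. They were found by gene symbol, and all 10 were among the 50775 features of the count tables and among the 16698 genes that passed the low-count filter. Torkinib (PP242) blocks the MTOR kinase by competing with ATP, and the series was set up to ask how MTOR inhibition alters genes of DNA repair. The lines were 94T778 from well differentiated liposarcoma, A375 and SKMEL28 from melanoma, and SKBR3 and AU565 from breast cancer, the last pair being derived from the same donor. Torkinib was given for 72 h at 10 µM in 94T778, at 4 µM in A375, SKMEL28 and AU565, and at 0.8 µM in SKBR3. The untreated groups were grown in the medium of their own line, with no time stated. According to the labels, doses had been set to stop cycling while cells stayed viable. Each of the 10 groups held 2 libraries, and no label says whether these were separate cultures, so the p-values reflect variation between libraries that may be technical. Torkinib acts on kinase activity, so no transcript checks that the target was hit.

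The retinoblastoma-related proteins p107 (RBL1) and p130 (RBL2) bind an E2F factor with its partner DP1 (TFDP1) or DP2 (TFDP2). In quiescent cells p130, or p107 in its place, joins these to the MuvB core of LIN9, LIN37, LIN52, LIN54 and RBBP4, and the resulting DREAM complex represses cell cycle genes. When cells enter the cycle the pocket protein leaves, and MuvB binds the transcription factor B-MYB (MYBL2) and later FOXM1, which then activate genes of G2 and mitosis. MYBL2 and FOXM1 are themselves cell cycle genes, so activators and repressors of the same core are read in the same libraries.

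Libraries held 4040023 to 9737903 counted reads, and counts of the 10 genes ran from 14 to 1804 in a library. Levels of single genes are given in CPM (TMM-normalised counts scaled to a common library size). Sums of marker genes are in CPM from library totals, without TMM factors. The summed level of 6 genes of the 12q amplicon was 10366 to 10743 CPM in torkinib 94T778 libraries and 11752 to 11932 CPM in untreated ones. It was at most 958 CPM in a library of another line. The 6 melanocyte genes summed to 10886 to 11062 CPM in torkinib SKMEL28 libraries, against 7197 to 7576 CPM in untreated ones, but only to 627 to 683 CPM and 645 to 711 CPM in A375. The 7 breast genes summed to 11263 to 14043 CPM in the torkinib libraries of SKBR3 and AU565, against 17558 to 23414 CPM in the untreated ones, and no gene of a line's own list was at 0 in that line. A375 untreated replicate 1 carried 13 genes that mark 94T778 at a median of 1.93% of their level there, against 0.157% in untreated replicate 2 and 0% in both torkinib libraries. The SKBR3 untreated libraries differed from each other by a chi-square of 11.1 per gene, against 1.34 to 3.15 in the other groups. Mitochondrial transcripts took 7.63% and 4.44% of their counts, and replicate 2 carried SKMEL28 markers at a median of 0.327%. The 4 fibroblast genes summed to 0.885 to 11.4 CPM in torkinib libraries and 6.51 to 64.1 CPM in untreated ones, lower with torkinib in each line. COL3A1 was at 0 in 94T778, LUM in SKBR3, and COL3A1, DCN and LUM in AU565, where the sum is COL1A1 alone. The part of these genes in the results was not tested. The part of single libraries was measured for the 10 genes by leaving each out, and values that moved are given with the results. It was not measured for the other genes named or for differences of response between lines.

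MYBL2 and FOXM1 fell in all 5 lines, and by more than any of the other 8 genes in each line. Averaged over the 5 lines, the log2 fold change of torkinib over untreated was -3.99 ± 0.06 for MYBL2 and -3.47 ± 0.06 for FOXM1 (estimate ± SE, 20 libraries). This SE reflects spread between libraries of a group and leaves out the spread between lines. Line values ran from -5.37 to -2.65 for MYBL2 and from -4.78 to -2.13 for FOXM1. Beside them LIN9 and TFDP1 fell in every line by smaller amounts, RBL2 rose in 4 lines and TFDP2 rose in 3. Of the 50 values for 10 genes in 5 lines, 29 were called lower, 7 higher and 14 were not called (edgeR's quasi-likelihood test, Benjamini-Hochberg adjusted p of 0.05 over all genes). Per line, 6, 6, 5, 6 and 6 of the 10 genes were called lower in 94T778, A375, SKMEL28, SKBR3 and AU565, where 23.8, 24.3, 23.7, 26.7 and 28.6% of all genes tested were. In the same order 1, 1, 2, 1 and 2 were called higher, where 23.8, 18.5, 20.4, 24.6 and 26.9% of all genes were. In bulk RNA, fewer cycling cells and less of these transcripts per cycling cell cannot be told apart.

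**Figure D1:**
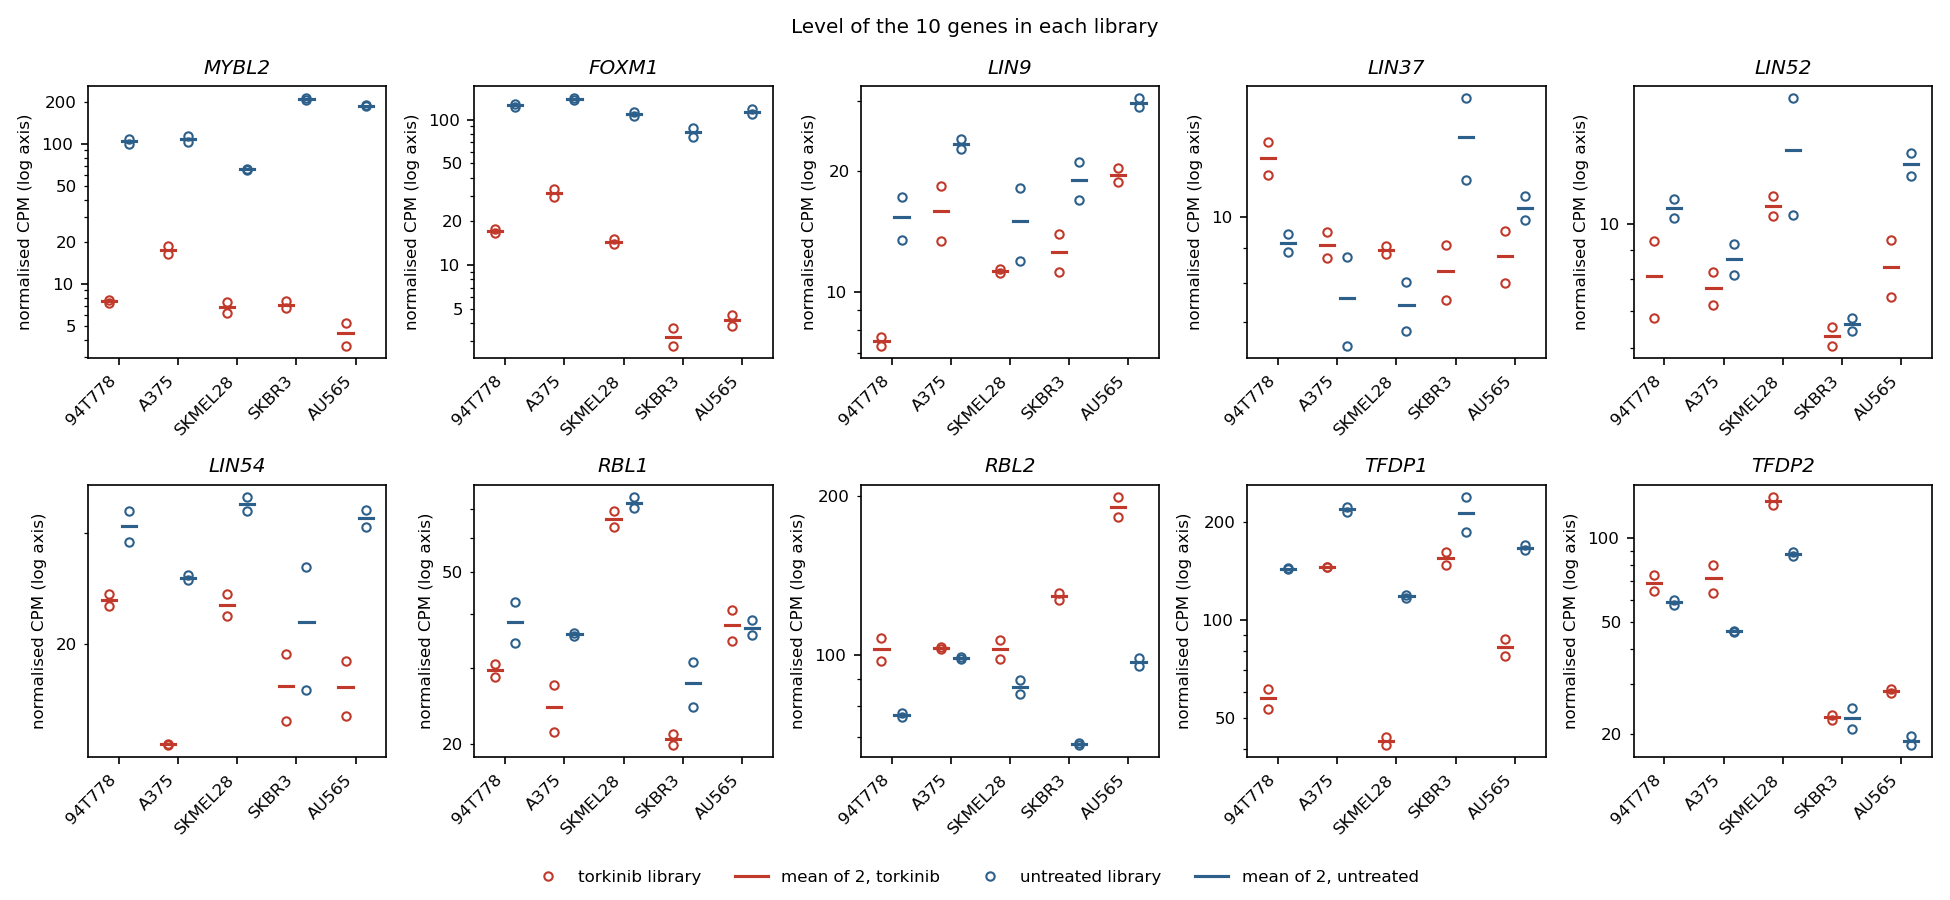
Normalised CPM on a log axis for each of the 10 genes, 1 panel a gene with its own range, torkinib libraries in red to the left of untreated libraries in blue in each cell line; points are libraries and bars the mean of 2. MYBL2 and FOXM1 torkinib libraries all lie far below the untreated libraries of their line, RBL2 torkinib libraries lie above, and LIN37 and LIN52 stay between 6.06 and 16.8 CPM in both groups.

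MYBL2, the B-MYB factor, stood at 7.33 and 7.69 CPM in torkinib 94T778 libraries, against 109 and 101 CPM in untreated ones. In A375 it stood at 16.3 and 18.6 CPM with torkinib and at 103 and 114 CPM untreated, and in SKMEL28 at 7.43 and 6.23 CPM with torkinib and at 65.3 and 66.7 CPM untreated. The torkinib level of A375 was the highest of the lines. In SKBR3 its levels were 7.55 and 6.70 CPM with torkinib and 206 and 212 CPM untreated, and in AU565 they were 3.61 and 5.27 CPM with torkinib and 186 and 191 CPM untreated. The breast lines had the highest untreated levels, and every torkinib library of any line lay below the lowest untreated library of any line. Levels were 13.9-fold lower with torkinib in 94T778, and 6.29-, 9.57-, 29.4- and 41.2-fold lower in A375, SKMEL28, SKBR3 and AU565. As log2 fold changes with their SE these were -3.80 ± 0.12, -2.65 ± 0.11, -3.26 ± 0.13, -4.88 ± 0.12 and -5.37 ± 0.13 (edgeR adjusted p at most 5.7e-21 in each line). Ranked were the 10924 genes at a mean of 5 CPM or more with a count in each of the 10 groups. Genes without a count in a group were left out. Of those ranked only 10 fell further than MYBL2 in 94T778, and 100, 33, 28 and 6 did in A375, SKMEL28, SKBR3 and AU565.

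FOXM1, the forkhead factor of G2 and mitosis, stood at 16.6 and 17.6 CPM in torkinib 94T778 libraries, against 128 and 123 CPM in untreated ones. In A375 it stood at 33.4 and 29.5 CPM with torkinib and at 137 and 140 CPM untreated, and in SKMEL28 at 13.9 and 15.0 CPM with torkinib and at 106 and 112 CPM untreated. As for MYBL2, the torkinib level was highest in A375. In SKBR3 it stood at 2.78 and 3.67 CPM with torkinib and at 76.5 and 87.4 CPM untreated, and in AU565 at 4.57 and 3.81 CPM with torkinib and at 118 and 109 CPM untreated. Torkinib and untreated libraries did not overlap in any line, which held for 70.8, 69.1, 69.2, 67.3 and 74.4% of all genes in 94T778, A375, SKMEL28, SKBR3 and AU565. FOXM1 was 7.32-fold lower with torkinib in 94T778, and 4.37-, 7.59-, 24.99- and 27.4-fold lower in A375, SKMEL28, SKBR3 and AU565 (log2 -2.87 ± 0.10, -2.13 ± 0.10, -2.92 ± 0.11, -4.64 ± 0.16 and -4.78 ± 0.14; edgeR adjusted p at most 8.7e-20). In GENCODE 29, 15.9% of the exon bases of FOXM1 are shared with ITFG2 on the other strand, and reads of these cannot be told apart without strand; ITFG2 itself rose by 0.54, 0.67, 0.44 and 1.18 log2 units in 94T778, SKMEL28, SKBR3 and AU565 (edgeR adjusted p at most 0.00673) and stood at 0.18 in A375 (adjusted p = 0.356). Without A375 untreated replicate 1, MYBL2 changed by -2.73 and FOXM1 by -2.15 in A375, and without SKBR3 untreated replicate 2 they changed by -4.86 and -4.54 in SKBR3.

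The 2 factors differed in their fall between lines, both in a test over all 5 lines (edgeR quasi-likelihood, adjusted p = 1.5e-13 for MYBL2 and 6.1e-14 for FOXM1), where 68.4% of all genes were called, and at the one dose that 3 lines share. At 4 µM the response of AU565 exceeded that of A375, with a log2 difference of -2.71 ± 0.21 for MYBL2 and -2.65 ± 0.20 for FOXM1. It also exceeded that of SKMEL28, with differences of -2.11 ± 0.23 and -1.85 ± 0.22. A375 responded less than SKMEL28, by 0.61 ± 0.19 for MYBL2 and 0.80 ± 0.15 for FOXM1 (edgeR adjusted p = 0.0137 and 9.4e-05). Of all genes 38%, 34.8% and 28.4% were called in these 3 comparisons, which share samples. SKBR3, at 0.8 µM, had log2 changes of -4.88 and -4.64 beside -5.37 and -4.78 in AU565 at 4 µM, but the doses differ and the pair was not compared.

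The promoter of MYBL2 is shown because the gene has the largest fall of the 10 and is a known target of E2F factors; it is the RefSeq sequence of build GRCh38.p14, chr20:43666864-43667163 on the plus strand, from 250 bases before to 50 after the start. Capitals mark GGCGGGA, an E2F-type run of letters that lies 39 bases before the start.
MYBL2: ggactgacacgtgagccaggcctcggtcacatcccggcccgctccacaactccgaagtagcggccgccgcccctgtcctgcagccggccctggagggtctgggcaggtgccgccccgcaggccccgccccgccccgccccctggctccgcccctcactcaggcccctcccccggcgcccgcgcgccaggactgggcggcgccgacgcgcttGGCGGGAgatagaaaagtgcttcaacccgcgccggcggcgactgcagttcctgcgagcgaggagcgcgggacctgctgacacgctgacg
Searched on both strands were TTTGAA and TTTAAA, forms of the cell cycle homology region that LIN54 binds, GCGGGAA and GCGCGAA, forms of the E2F site, and TAAACA, a forkhead core. None of these is in the MYBL2 window. GGCGGGA was added after the sequences had been read, overlaps GCGGGAA by 6 letters where both occur, and is in 15.4% of the 35116 promoters of that length. TTTGAA is in 15.2%, TTTAAA in 12.2%, GCGGGAA in 6.55%, GCGCGAA in 2.24% and TAAACA in 12.3% of them.

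Among the pocket proteins RBL2 was called higher in 4 lines and RBL1 lower in 3. RBL2 encodes p130, the pocket protein of quiescent cells, and its level was 97.6 and 108 CPM in torkinib 94T778 libraries, against 77.6 and 76.2 CPM in untreated ones. In SKBR3 it was 127 and 131 CPM with torkinib and 67.5 and 68.0 CPM untreated, and in AU565 199 and 183 CPM with torkinib and 98.5 and 95.4 CPM untreated. In these breast lines RBL2 was 1.91-fold and 1.97-fold higher with torkinib, with log2 changes of 0.93 ± 0.09 and 0.98 ± 0.08 (edgeR adjusted p = 1.2e-11 and 2.7e-13), and 94T778 gained 0.42 ± 0.08 (adjusted p = 8.4e-05). In SKMEL28 RBL2 stood at 107 and 98.2 CPM with torkinib and at 89.7 and 84.2 CPM untreated, and in A375 at 104 and 102 CPM with torkinib and at 99.1 and 98.1 CPM untreated. The SKMEL28 rise of 0.24 ± 0.08 (edgeR adjusted p = 0.0147) was lost without untreated replicate 2 (0.20, adjusted p = 0.181) and without torkinib replicate 1 (0.18, adjusted p = 0.189), and the A375 change of 0.06 ± 0.08 was not called (adjusted p = 0.567). The response of AU565 was higher than that of A375 by 0.91 ± 0.11 and than that of SKMEL28 by 0.73 ± 0.11 at the same dose (edgeR adjusted p = 3.3e-08 and 2.3e-06). In GENCODE 29 RBL2 shares 8.33% of its exon bases with AKTIP on the other strand, and 9.85% with an unnamed transcript there. AKTIP changed by 0.63, -0.02, 0.11, 0.28 and -0.26 log2 units in 94T778, A375, SKMEL28, SKBR3 and AU565, of which the A375 and SKMEL28 values were not called.

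RBL1 encodes p107, a pocket protein that is itself made in cycling cells. It stood at 30.6 and 28.6 CPM in torkinib 94T778 libraries and at 34.2 and 42.5 CPM in untreated ones, at 21.3 and 27.4 CPM with torkinib and 35.6 and 36.2 CPM untreated in A375, and at 19.9 and 21.1 CPM with torkinib and 24.3 and 30.9 CPM untreated in SKBR3. The groups did not overlap in these lines, as in 70.8, 69.1 and 67.3% of all genes there. The log2 changes were -0.38 ± 0.13, -0.58 ± 0.13 and -0.44 ± 0.15 (edgeR adjusted p = 0.0129, 0.000536 and 0.0123). Each of the 3 calls hung on single libraries. In 94T778 the call was lost without untreated replicate 2 (-0.21) or torkinib replicate 2 (-0.33), and with library totals alone (-0.27, edgeR adjusted p = 0.0813). In A375 it was lost without torkinib replicate 1 (-0.39). In SKBR3 it was lost without untreated replicate 2 (-0.24) or torkinib replicate 1 (-0.41), and with that line fitted alone (-0.42, edgeR adjusted p = 0.057). SKMEL28 had the highest RBL1 level of the lines, 69.3 and 63.4 CPM with torkinib and 70.2 and 74.4 CPM untreated. Its groups did not overlap either, as in 69.2% of all genes there, but the change of -0.13 ± 0.10 was not called. AU565 stood at 34.6 and 40.7 CPM with torkinib and at 38.6 and 35.7 CPM untreated, overlapping groups with a change of 0.03 ± 0.12 that was not called either. An antisense gene covers 3.54% of the exon bases of RBL1 in GENCODE 29. Within a library the count ratio of RBL1 to RBL2 was lower with torkinib in every line, with differences of -0.78, -0.63, -0.36, -1.35 and -0.96 log2 units in 94T778, A375, SKMEL28, SKBR3 and AU565, with no overlap between the groups of a line.

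The promoters of the 2 pocket protein genes are shown because RBL2 was called higher and RBL1 lower in 94T778 and SKBR3. Both are RefSeq sequences of build GRCh38.p14: RBL1 at chr20:37095948-37096247 on the minus strand, and the first of 2 RBL2 promoters in the table, at chr16:53434221-53434520 on the plus strand. Capitals mark the searched letters, written as read on the gene's strand, so that TCCCGCC stands for GGCGGGA on the other strand. Likewise TTCGCGC stands for GCGCGAA and TGTTTA for TAAACA.
RBL1: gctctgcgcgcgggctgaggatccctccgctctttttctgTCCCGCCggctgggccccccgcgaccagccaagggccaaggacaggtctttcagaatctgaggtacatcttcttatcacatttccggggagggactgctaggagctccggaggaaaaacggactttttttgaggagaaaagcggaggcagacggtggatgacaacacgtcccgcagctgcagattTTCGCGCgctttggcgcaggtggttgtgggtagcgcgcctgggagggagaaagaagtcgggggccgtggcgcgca
RBL2: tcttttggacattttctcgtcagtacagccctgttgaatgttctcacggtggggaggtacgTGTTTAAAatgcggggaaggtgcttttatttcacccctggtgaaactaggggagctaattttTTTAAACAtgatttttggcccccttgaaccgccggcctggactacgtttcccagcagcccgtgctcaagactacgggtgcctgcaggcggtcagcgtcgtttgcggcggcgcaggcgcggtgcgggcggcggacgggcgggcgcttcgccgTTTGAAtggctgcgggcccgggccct
RBL1 holds GGCGGGA at 210 and GCGCGAA at 25 bases before the start, both on the opposite strand. RBL2 holds TTTAAA at 187 and 127 bases before the start, each overlapping a TAAACA, and TTTGAA in the bases after the start. A match describes letters only, and no factor's binding was measured. Of the 10 genes 9 had a promoter in the table, and FOXM1 was not among them.

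Of the DP partners of E2F, TFDP1 was called lower in all 5 lines and TFDP2 higher in A375, SKMEL28 and AU565. TFDP1, which encodes DP1, stood at 53.2 and 61.4 CPM in torkinib 94T778 libraries, against 143 and 144 CPM in untreated ones. In SKMEL28 it stood at 43.6 and 41.2 CPM with torkinib and at 119 and 117 CPM untreated, and in AU565 at 77.2 and 87.3 CPM with torkinib and at 165 and 170 CPM untreated. In these 3 lines the level was 2.51-, 2.78- and 2.02-fold lower with torkinib, with log2 changes of -1.33 ± 0.10, -1.48 ± 0.10 and -1.02 ± 0.09 (edgeR adjusted p at most 1.3e-11). A375 stood at 146 and 146 CPM with torkinib and at 223 and 215 CPM untreated, and SKBR3 at 147 and 162 CPM with torkinib and at 187 and 239 CPM untreated. Their changes were smaller, -0.59 ± 0.09 and -0.46 ± 0.09 (edgeR adjusted p = 1.2e-06 and 3.9e-05). The groups of A375 and SKBR3 did not overlap, as in 69.1 and 67.3% of all genes there. Without SKBR3 untreated replicate 2 the SKBR3 change was -0.27 (adjusted p = 0.0065). At 4 µM the change of A375 was 0.89 ± 0.14 above that of SKMEL28 and that of AU565 0.46 ± 0.14 above that of SKMEL28, while AU565 minus A375 was -0.43 ± 0.13 (edgeR adjusted p at most 0.00907). The TFDP1 call held with each library left out in turn and in all 7 other alternatives.

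TFDP2, which encodes DP2, stood at 63.5 and 80.1 CPM in torkinib A375 libraries, against 46.3 and 46.6 CPM in untreated ones. In SKMEL28 it stood at 140 and 131 CPM with torkinib and at 86.6 and 89.1 CPM untreated, and in AU565 at 28.9 and 27.98 CPM with torkinib and at 19.6 and 18.3 CPM untreated. The rises were 0.62 ± 0.10, 0.62 ± 0.09 and 0.58 ± 0.13 (edgeR adjusted p at most 0.000276). None of the 3 differences between these lines at 4 µM was called, at -0.01 ± 0.14 for A375 minus SKMEL28, -0.03 ± 0.17 for AU565 minus A375 and -0.04 ± 0.16 for AU565 minus SKMEL28. In 94T778 it stood at 64.6 and 73.8 CPM with torkinib and at 60.2 and 57.7 CPM untreated. That change of 0.23 ± 0.10 was just short of the threshold (edgeR adjusted p = 0.0519). It was called with library totals alone (0.34, edgeR adjusted p = 0.00504), with the line fitted alone (0.23, edgeR adjusted p = 0.0272) and without torkinib replicate 1 (0.33). In SKBR3 the groups overlapped, at 23.2 and 22.5 CPM with torkinib and 20.8 and 24.8 CPM untreated, with a change of -0.01 ± 0.14 whose sign differed between settings. The count ratio of TFDP1 to TFDP2 was lower with torkinib too, with differences of -1.56, -1.21, -2.10, -0.46 and -1.61 log2 units in 94T778, A375, SKMEL28, SKBR3 and AU565.

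**Figure D2:**
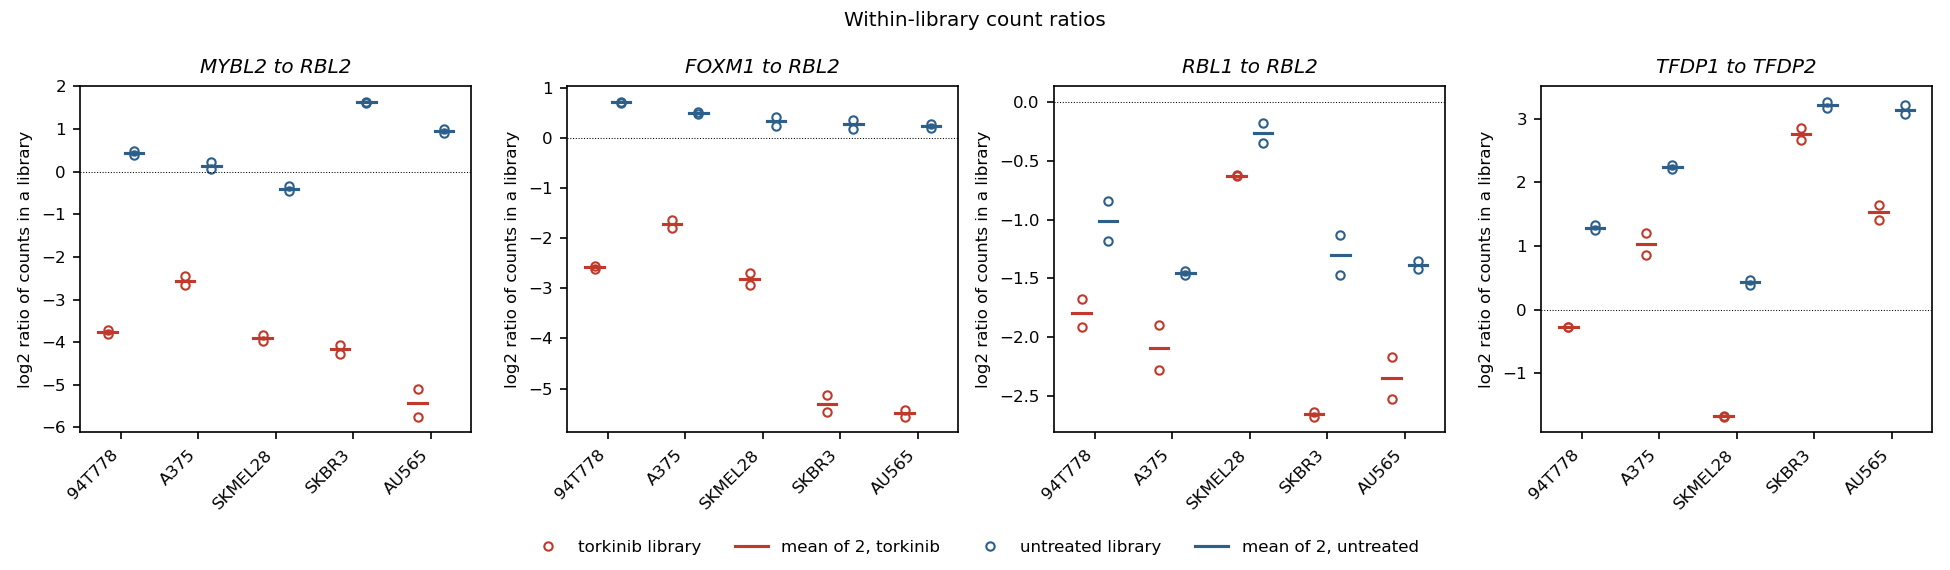
Log2 ratio of counts of 2 genes within a library, 1 panel a ratio with its own range, torkinib libraries in red to the left of untreated libraries in blue in each cell line; points are libraries, bars the mean of 2 and the dotted line equal counts. All torkinib libraries lie below both untreated libraries of their line, with the widest gap for MYBL2 to RBL2 in AU565 (-6.38).

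Of the MuvB core, LIN9 was called lower in 5 lines and LIN54 in 4, while LIN37 and LIN52 had 1 call each. LIN9 links the core to B-MYB, and a call lower in all 5 lines was found in 4.62% of all genes tested. It stood at 7.71 and 7.31 CPM in torkinib 94T778 libraries, against 17.3 and 13.5 CPM in untreated ones, a change of -1.03 ± 0.20 (edgeR adjusted p = 5.4e-05). In AU565 it stood at 20.4 and 18.8 CPM with torkinib and at 30.4 and 28.95 CPM untreated, a change of -0.61 ± 0.15 (edgeR adjusted p = 0.000673). Both changes were called with each library left out. In A375 LIN9 stood at 13.4 and 18.3 CPM with torkinib and 22.7 and 24.1 CPM untreated, in SKMEL28 at 11.4 and 11.1 CPM with torkinib and 11.9 and 18.2 CPM untreated, and in SKBR3 at 13.9 and 11.2 CPM with torkinib and 16.9 and 21.1 CPM untreated. The changes of -0.59 ± 0.17, -0.47 ± 0.18 and -0.63 ± 0.19 (edgeR adjusted p = 0.0038, 0.0301 and 0.00461) were each lost without 1 library. They were lost in A375 without torkinib replicate 1 (-0.35, adjusted p = 0.199), and in SKBR3 without untreated replicate 2 (-0.45, adjusted p = 0.0946) or torkinib replicate 2 (-0.48, adjusted p = 0.0990). In SKMEL28 the call was lost without untreated replicate 2 (-0.08, adjusted p = 0.871), torkinib replicate 1 (-0.49, adjusted p = 0.102) or torkinib replicate 2 (-0.46, adjusted p = 0.104), and by DESeq2 (adjusted p = 0.0845) and limma-voom (adjusted p = 0.0564). Hence LIN9 was called lower whichever library was left out in 94T778 and AU565 only, and a difference of its response between lines was not called (adjusted p = 0.394).

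LIN54, the subunit that binds DNA, stood at 13.9 and 13.9 CPM in torkinib A375 libraries, against 25.7 and 25.3 CPM in untreated ones. In SKMEL28 it stood at 24.0 and 22.2 CPM with torkinib and at 32.5 and 34.2 CPM untreated, and in AU565 at 18.8 and 15.4 CPM with torkinib and at 30.6 and 32.7 CPM untreated. Groups were apart in these 3 lines and in 94T778, as in 69.1, 69.2, 74.4 and 70.8% of all genes there. In A375, SKMEL28 and AU565 the changes of -0.88 ± 0.16, -0.53 ± 0.13 and -0.90 ± 0.15 (edgeR adjusted p at most 0.00145) kept their call with each library left out. In 94T778 it stood at 23.0 and 24.1 CPM with torkinib and at 29.05 and 32.5 CPM untreated, a change of -0.39 ± 0.14 (edgeR adjusted p = 0.0216). That call was lost without untreated replicate 2 (-0.31), torkinib replicate 1 (-0.35) or torkinib replicate 2 (-0.42). With all libraries kept it was lost with library totals alone (-0.28, edgeR adjusted p = 0.108) and by DESeq2 (-0.40, adjusted p = 0.0503). In SKBR3 the groups overlapped, at 15.1 and 19.3 CPM with torkinib and 16.9 and 26.5 CPM untreated. There the change was -0.35 ± 0.17 and not called (edgeR adjusted p = 0.0777), but it was called without untreated replicate 1 (-0.62, adjusted p = 0.00111) or torkinib replicate 2 (-0.57, adjusted p = 0.0325) and stood at 0.04 without untreated replicate 2 (adjusted p = 0.960).

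LIN37, a subunit needed for repression by DREAM, and LIN52, the subunit whose phosphorylation by DYRK1A lets the pocket protein bind, had few counts, 33 to 126 in a library. LIN37 stood at 7.55 and 9.09 CPM in torkinib SKBR3 libraries, against 14.9 and 11.3 CPM in untreated ones, and this change of -0.62 ± 0.20 was its only call (edgeR adjusted p = 0.00846). It was lost without untreated replicate 1 (-0.44, adjusted p = 0.127) or torkinib replicate 1 (-0.51, adjusted p = 0.0791). In the other lines LIN37 changed by 0.41, 0.24, 0.29 and -0.21 log2 units in 94T778, A375, SKMEL28 and AU565, none of them called. Its response differed between the 5 lines (edgeR adjusted p = 0.00597). With library totals alone LIN37 was called higher in 94T778 (0.52, edgeR adjusted p = 0.0204). GENCODE 29 places 41.8% of its exon bases over an antisense gene and 26.7% over a gene on the same strand, so its counts are uncertain. LIN52 stood at 7.42 and 9.38 CPM in torkinib AU565 libraries, against 13.4 and 12.2 CPM in untreated ones, its only call (-0.60 ± 0.20, edgeR adjusted p = 0.0114). That was lost without untreated replicate 1 (-0.53, adjusted p = 0.0826) or torkinib replicate 1 (-0.46, adjusted p = 0.118). LIN52 changed by -0.40, -0.15, -0.27 and -0.07 log2 units in 94T778, A375, SKMEL28 and SKBR3, without a call; it was called without torkinib replicate 1 in 94T778 (-0.65, adjusted p = 0.0454) and without untreated replicate 2 in SKMEL28 (-0.64, adjusted p = 0.0181).

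**Figure D3:**
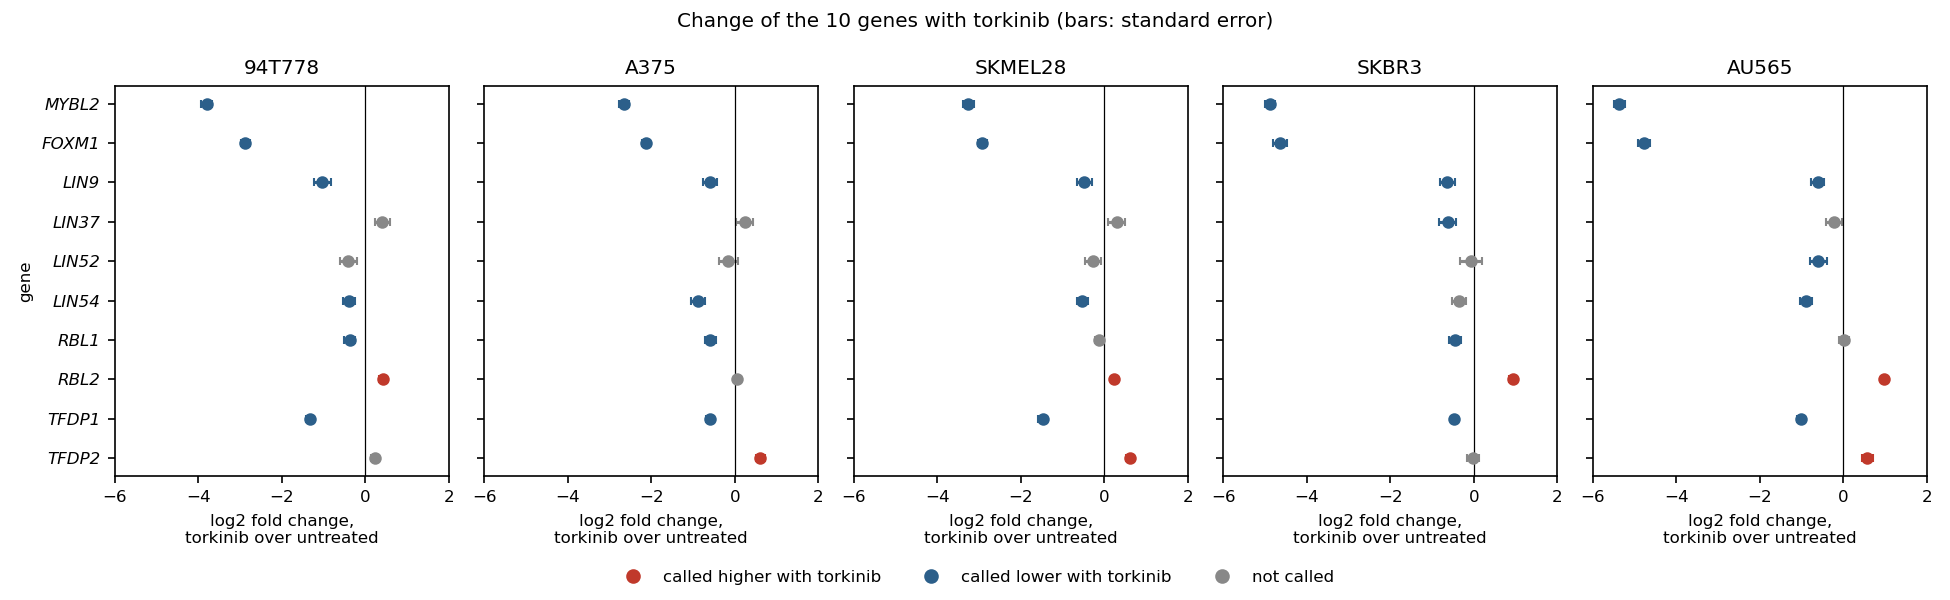
Log2 fold change of the 10 genes, torkinib over untreated, 1 panel a cell line on a shared axis; points are edgeR estimates from 2 libraries a group, bars their standard error, and colours show whether a gene was called higher, called lower or not called. MYBL2 and FOXM1 stand between -5.37 and -2.13, while the other 8 genes stand between -1.48 and 0.98.

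The activators were also read against RBL2, and MYBL2 against the core subunit LIN54, within libraries, where scaling cannot enter. RBL2 lies outside the MuvB core and was itself called higher in 4 lines, which widens the ratios to it. The log2 ratio of MYBL2 to RBL2 counts ranged from -5.75 to -2.46 with a median of -3.90 in the 10 torkinib libraries, and from -0.46 to 1.64 with a median of 0.45 in the 10 untreated ones. That of FOXM1 to RBL2 ranged from -5.56 to -1.63 in torkinib libraries and from 0.18 to 0.72 in untreated ones. For both ratios the highest torkinib library lay below the lowest untreated library of any line. The shift of MYBL2 against RBL2 was -4.21, -2.70, -3.50, -5.79 and -6.38 in 94T778, A375, SKMEL28, SKBR3 and AU565, and that of FOXM1 against RBL2 -3.28, -2.20, -3.15, -5.57 and -5.72. Against LIN54, a core subunit that mostly fell, MYBL2 shifted by -3.41, -1.77, -2.74, -4.55 and -4.51, again without overlap between the groups of a line.

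Further subunits and relatives did not share 1 direction. RBBP4, the histone-binding subunit of MuvB, fell, with log2 changes of -0.43, -0.38, -0.39 and -0.35 in 94T778, SKMEL28, SKBR3 and AU565 (edgeR adjusted p at most 0.00152) and stood at 0.09 in A375 (adjusted p = 0.412). The E2F factors that partner p130 split: E2F4 changed by -0.34, 0.51, 0.01, -0.30 and -0.08 in 94T778, A375, SKMEL28, SKBR3 and AU565, called in 94T778, A375 and SKBR3, whereas E2F5 rose by 1.01, 0.79, 1.15 and 1.75 in 94T778, SKMEL28, SKBR3 and AU565 (edgeR adjusted p at most 0.00906) and stood at -0.22 in A375. E2F5 rested on few reads, with 76 counts over the torkinib and 31 over the untreated AU565 libraries. RB1, the third pocket protein gene, rose by 0.40 in A375 and 0.85 in SKBR3 (edgeR adjusted p = 0.0017 and 5.4e-06) and was not called elsewhere. DYRK1A, the kinase that promotes DREAM assembly, rose by 0.39 in 94T778 and 0.61 in SKBR3 (edgeR adjusted p = 0.0019 and 1.6e-06) and was not called elsewhere.

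Of the other MYB genes, MYBL1, which encodes A-MYB, fell, with log2 changes of -0.57, -1.22, -1.67 and -1.58 in 94T778, A375, SKMEL28 and SKBR3 (edgeR adjusted p at most 0.0052) and stood at -0.53 in AU565 (adjusted p = 0.198). In SKBR3 MYBL1 rested on few reads, with 10 counts over the torkinib and 33 over the untreated libraries. MYB itself had appreciable counts only in the breast lines. It fell by 0.58 in AU565 (edgeR adjusted p = 0.000201), with 24.7 and 25.2 CPM in torkinib and 34.5 to 40.5 CPM in untreated libraries, and stood at -0.06 in SKBR3. In 94T778 it had 1 count over the torkinib and 16 over the untreated libraries, in A375 4 and 34, and in SKMEL28 20 and 53. Over these 7 genes 4, 2, 3, 3 and 2 were called lower and 2, 2, 1, 3 and 1 higher in 94T778, A375, SKMEL28, SKBR3 and AU565. Of all genes tested, 23.8, 24.3, 23.7, 26.7 and 28.6% were called lower and 23.8, 18.5, 20.4, 24.6 and 26.9% higher in that order. The median change of the 7 genes lay between -0.34 and 0.03, where the median over all genes at a mean of 10 counts or more in the line lay between -0.03 and 0.01.

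The mitotic genes that MuvB activates with B-MYB and FOXM1 were lower throughout. All 28 were called lower in each of the 5 lines, as were 4.62% of all genes tested. Their median log2 changes were -2.68, -2.25, -2.54, -4.34 and -4.18 in 94T778, A375, SKMEL28, SKBR3 and AU565. KIF20A, a kinesin of cytokinesis, changed by -3.46, -2.59, -3.37, -4.84 and -5.29 log2 units in that order, and PLK1, the polo kinase of mitosis, by -3.23, -2.68, -2.71, -4.88 and -5.39. TOP2A, which untangles chromosomes, changed by -2.53, -2.02, -2.89, -4.18 and -3.96, and TPX2, a spindle assembly factor, by -2.85, -2.38, -2.18, -4.20 and -3.86 (edgeR adjusted p at most 3.6e-21 for all named but TOP2A in A375, at 7.2e-20). MYBL2 lay below the median of this list in every line, and FOXM1 did in all but A375, where it stood at -2.13 beside a median of -2.25.

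Of 20 genes of G1/S and S phase, which E2F and DREAM control through E2F sites, 20, 19, 18, 20 and 20 were called lower in the same order. The shares of all genes called lower were 23.8, 24.3, 23.7, 26.7 and 28.6%. Medians of the 20 genes were -1.41, -1.02, -1.08, -1.86 and -2.15. RRM2, the small subunit of ribonucleotide reductase, changed by -2.57, -2.09, -4.22, -4.46 and -4.97 log2 units. CDC6, which loads the replicative helicase, changed by -2.61, -1.62, -1.91, -3.83 and -3.76 (edgeR adjusted p at most 1.7e-14 for both). E2F1, the activating E2F, changed by -1.28, -1.14, -1.03, -4.64 and -3.43, and TYMS, thymidylate synthase, by -1.75, -0.81, -2.75, -2.73 and -3.24 (edgeR adjusted p at most 8.4e-10). CDT1, the licensing factor, was the 1 gene called higher, by 0.75 in SKMEL28 (edgeR adjusted p = 2.6e-05), and it fell in the other lines; it was singled out after its values had been seen.

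**Figure D4:**
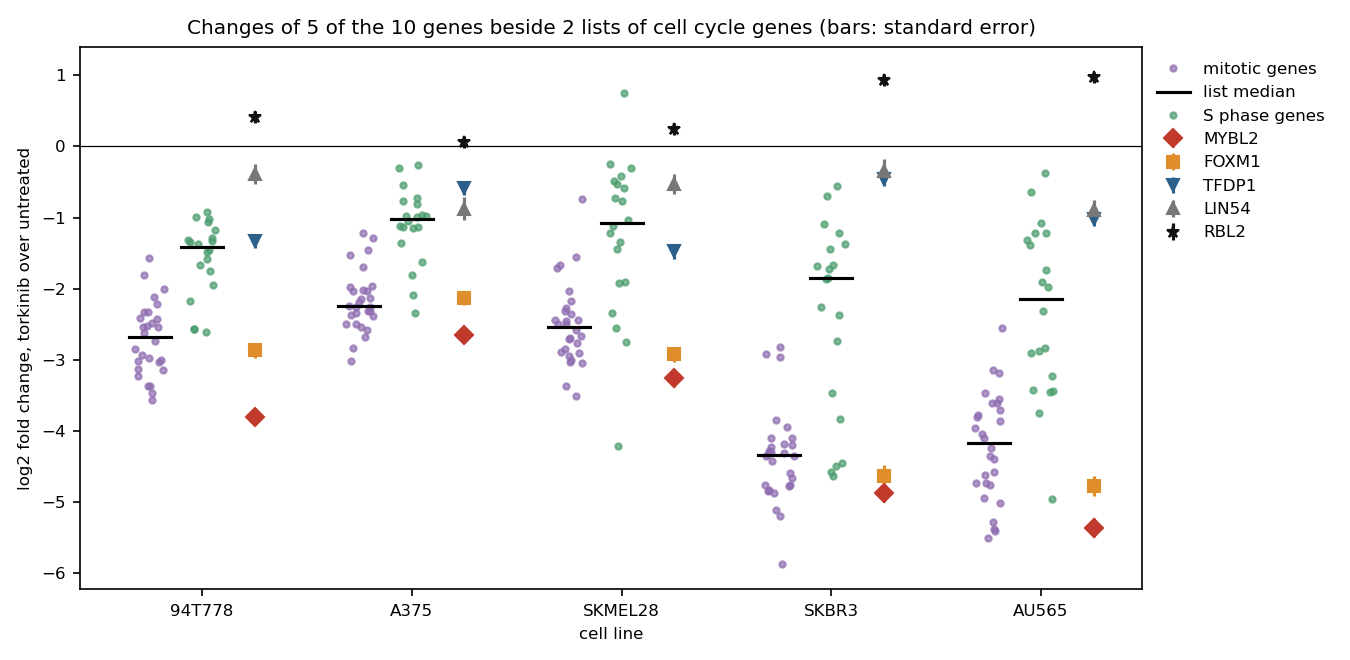
Log2 fold change, torkinib over untreated, of 28 mitotic genes and 20 S phase genes (points, with the list median as a bar) beside MYBL2, FOXM1, TFDP1, LIN54 and RBL2 (symbols, with bars for the standard error) in each cell line. MYBL2 lies below the mitotic median in all 5 lines, while RBL2 lies above 0 and LIN54 lies between -0.90 and -0.35.

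Upstream of the pocket proteins, the 12 genes for cyclins D, CDK2, CDK4, CDK6, CDK inhibitors and p53 were split. Of these, 6, 5, 4, 4 and 5 were called lower and 5, 1, 3, 4 and 4 higher in 94T778, A375, SKMEL28, SKBR3 and AU565. In that order 23.8, 24.3, 23.7, 26.7 and 28.6% of all genes were called lower and 23.8, 18.5, 20.4, 24.6 and 26.9% higher. CCND3, a D cyclin, changed by -0.997, -0.61, -1.52, -1.09 and -1.71 log2 units, and CDKN2C, which encodes the inhibitor p18, by -0.97, -0.81, -2.62, -1.41 and -2.47 (edgeR adjusted p at most 0.000475). CDK2 fell in 94T778, A375, SKBR3 and AU565, with log2 changes of -1.28, -1.30, -1.27 and -1.49, and rose by 1.05 in SKMEL28 (edgeR adjusted p at most 5.4e-09). CDK6 rose by 1.73 in SKBR3 and 2.86 in AU565, the lines with the largest RBL2 rise, changed by -0.42 in 94T778 and -0.27 in SKMEL28 (edgeR adjusted p at most 0.0198), and stood at 0.20 in A375.

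Patterns were compared with 10914 other genes at a mean of 5 CPM or more and with a count in each of the 10 groups. The genes whose 5 line changes lay closest to those of MYBL2, by root mean square difference in log2 units, were KIF20A (0.166), PLK1 (0.355), DLGAP5 (0.372), BIRC5 (0.374) and SHCBP1 (0.486). For FOXM1 they were SKA1 (0.200), NDC80 (0.203), NUSAP1 (0.204), SHCBP1 (0.224) and CDK1 (0.225). SHCBP1 stood in both lists. For RBL2 the nearest were BDP1 (0.0577), GNAQ (0.0712), FTL (0.0714), FAM188A (0.0845) and SBF2 (0.0889), and for RBL1 CFDP1 (0.106), CCNJ (0.113), FAM135A (0.115), FARS2 (0.125) and DTD1 (0.128). Small differences are easier to reach for small changes, so the values are not compared between the 4 genes, and each pattern rests on 5 lines only.

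Untreated levels of the 10 genes also differed between lines. Of 100 comparisons, 10 genes in 10 pairs of lines, 67 were called at an edgeR adjusted p of 0.05. Of all genes, 67.1, 64.4, 76.6 and 74.6% were called between 94T778 and A375, SKMEL28, SKBR3 and AU565. Between A375 and SKMEL28, SKBR3 and AU565 the shares were 68.6, 77.3 and 76.3%, between SKMEL28 and SKBR3 and AU565 75.9 and 75.4%, and between SKBR3 and AU565 51.2%. Of the 40 neighbouring ranks only 12 were called. MYBL2 ranked SKBR3 (209 ± 4 CPM, SD, n = 2), AU565 (188 ± 3), A375 (109 ± 8), 94T778 (105 ± 6) and SKMEL28 (66.0 ± 1.0), with no call between SKBR3 and AU565 or between A375 and 94T778. Scaled by library totals alone, A375 and 94T778 were called apart for MYBL2 (-0.25 for 94T778 over A375, edgeR adjusted p = 0.0104) and for FOXM1 (-0.34, adjusted p = 0.000476). FOXM1 ranked otherwise, with A375 (138 ± 2 CPM), 94T778 (125 ± 3), AU565 (114 ± 7) and SKMEL28 (109 ± 4) not called from one to the next, and SKBR3 last (81.9 ± 7.7). RBL2 had the narrowest range, 1.46-fold from A375 (98.6 ± 0.7 CPM) to SKBR3 (67.8 ± 0.4), and no neighbours were called. TFDP2 had the widest, 4.65-fold, from SKMEL28 (87.9 ± 1.8 CPM) over 94T778 (58.9 ± 1.7) and A375 (46.4 ± 0.2) to SKBR3 (22.8 ± 2.8) and AU565 (18.9 ± 0.9), the last pair not called. Scaled by library totals alone, RBL2 was called for A375 over AU565 (0.23, edgeR adjusted p = 0.0113) and for 94T778 over SKBR3 (0.27, adjusted p = 0.00881), and the TFDP2 call for 94T778 over A375 was lost (0.15, adjusted p = 0.211).

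Untreated TFDP1 ranked A375 (219 ± 5 CPM), SKBR3 (213 ± 36), AU565 (167 ± 4), 94T778 (144 ± 1) and SKMEL28 (118 ± 2), the first pair not called. That pair, at 0.04 for A375 over SKBR3, was called without SKBR3 untreated replicate 2 (0.23) and stood at -0.14 without replicate 1. Without SKBR3 untreated replicate 2 the call between SKBR3 and AU565 was lost (0.16). The call between 94T778 and SKMEL28 was lost without SKMEL28 untreated replicate 2 (0.27). The call between 94T778 and AU565 was lost without any 1 of the 4 libraries, at -0.24 to -0.20, and with library totals alone (-0.20, adjusted p = 0.0518), where TFDP1 was called for A375 over SKBR3 (0.32, adjusted p = 0.00183). RBL1 was highest in SKMEL28 (72.3 ± 3.0 CPM), and 94T778 (38.4 ± 5.9), AU565 (37.1 ± 2.1) and A375 (35.9 ± 0.4) were not called from one to the next, with SKBR3 last (27.6 ± 4.7), a call that was lost without SKBR3 untreated replicate 1 (0.19, adjusted p = 0.203). LIN9 was highest in AU565 (29.7 ± 1.0 CPM), LIN37 in SKBR3 (13.1 ± 2.5), and LIN52 and LIN54 in SKMEL28 (13.6 ± 4.5 and 33.3 ± 1.2). Of the neighbours in these 4 orders only AU565 and A375 for LIN9 were called, and that call was lost without A375 untreated replicate 1 (-0.30, adjusted p = 0.107) or AU565 untreated replicate 1 (-0.31, adjusted p = 0.118), and with library totals alone (-0.14, adjusted p = 0.369). On that scale A375 over SKBR3 was called for LIN9 (0.57, adjusted p = 0.00117), LIN52 (0.67, adjusted p = 0.00876) and LIN54 (0.49, adjusted p = 0.00328). With torkinib, the highest group means of MYBL2 (17.4 ± 1.6 CPM) and FOXM1 (31.4 ± 2.7 CPM), both in A375, lay below the lowest untreated means, 66.0 ± 1.0 CPM in SKMEL28 and 81.9 ± 7.7 CPM in SKBR3.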

How the data were processed

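Total RNA, isolated with a column kit (RNeasy midi, Qiagen) according to the labels, was sequenced in 20 libraries. The authors deposited raw counts for each gene symbol, as whole numbers and with no normalization, 1 file a library. The submitters' processing notes name hg19 (GRCh37), limma 3.34.9, HTSeq 0.6.1 and HISAT2 2.04 without their roles. The annotation used, and whether counting kept strand, is not given in the sources used here. Counted reads were 47.8 to 62.4% of all reads, and the counter's summary lines stayed out of library sizes and tests. LIN37 and LIN52 (33 to 126 counts a library) and, with torkinib, MYBL2 and FOXM1 (14 to 219) rest on few reads.

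Counts were fitted in R 4.3.3 with edgeR 4.0.16 (filterByExpr, TMM factors, 10 group means in 1 quasi-likelihood model, so that all groups share the estimate of spread), tested per line, for the average, for differences between lines and between untreated lines, and called at a Benjamini-Hochberg adjusted p of 0.05 over all 16698 genes. Levels of single genes are TMM-normalised CPM computed from the counts, and marker sums are CPM from library totals without TMM factors. Ratios are log2 of counts plus 0.5 within a library, without a test. Alternatives were RLE factors, library totals alone, no filter, DESeq2 1.42.0, limma-voom (limma 3.58.1), each line alone, a replicate block and leaving out each library. Leaving out a library for the ratios was added after seeing the data. The alternatives covered the 10 genes and the numbers of genes called. Other genes named and differences of response between lines were not included. The script was tested on simulated counts. Members, lists and tests were chosen with earlier results of these data known. Named were all 10 genes, all of the list of other subunits and relatives, of each further list the 4 genes with the smallest p on the average, and for MYBL2, FOXM1, RBL1 and RBL2 the 5 genes with the nearest pattern. Overlaps come from GENCODE 29 (GRCh38), which is not the build of the counts, and give shares of exon bases only.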

Additional observations from a re-analysis of the deposited data

Results flagged for a closer look

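The response to torkinib differed between the 5 lines for 7 of the 10 genes (edgeR's quasi-likelihood F-test, Benjamini-Hochberg adjusted over all genes). The adjusted p was 1.49e-13 for MYBL2, 6.09e-14 for FOXM1, 4.64e-09 for RBL2, 2.28e-08 for TFDP1, 0.00247 for TFDP2, 0.00597 for LIN37 and 0.0175 for RBL1. Lines differ in dose as well as in origin, and 68.4% of all genes were called in the same test.

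Between lines at 4 µM, the difference of the log2 responses was called in 13 of 30 cases, where 38% of all genes were called for AU565 minus A375, 34.8% for AU565 minus SKMEL28 and 28.4% for A375 minus SKMEL28. For AU565 minus A375 it was -2.71 for MYBL2, -2.65 for FOXM1, 0.61 for RBL1, 0.91 for RBL2 and -0.43 for TFDP1. For AU565 minus SKMEL28 it was -2.11 for MYBL2, -1.85 for FOXM1, 0.73 for RBL2 and 0.46 for TFDP1. For A375 minus SKMEL28 it was 0.61 for MYBL2, 0.80 for FOXM1, -0.46 for RBL1 and 0.89 for TFDP1. The 3 comparisons share samples.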

How the results depend on the processing

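With 2 libraries a group, 26 of the 36 calls (20 lower, 6 higher) were kept in every alternative, all 15 of MYBL2, FOXM1 and TFDP1 among them. Of 350 values that keep all libraries 337 kept direction and call, 6 lost the call, 3 gained it and 4 changed sign; with 1 library left out it was 169, 20, 5 and 6 of 200. Every value that changed sign was uncalled in the fit reported. With library totals alone, members called lower in 94T778 were 4, against 6 in the fit reported. Library totals alone moved the median of all genes by 0.11 log2 units in 94T778, where members called higher were 3 (2 with each line alone, 1 in the fit reported, 1 to 2 with a library left out). In SKMEL28 they were 1 to 2 with a library left out, against 2. TFDP2 in SKBR3 was 0.021 with RLE factors, 0.024 by DESeq2 and 0.018 in that line alone, and RBL1 in AU565 -0.033 without a filter. With library totals alone, untreated RBL1 was -0.097 for 94T778 over A375 and 0.156 for A375 over AU565. The cause was not tested.

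Leaving out 1 library, log2 changes of uncalled values ran from -0.64 to 0.052 for LIN52 in SKMEL28, -0.62 to 0.038 for LIN54 in SKBR3, -0.13 to 0.13 for TFDP2 in SKBR3 and -0.12 to 0.13 for RBL1 in AU565. Untreated differences of 94T778 ran from -0.12 to 0.023 (LIN54, over AU565), -0.12 to 0.023 (MYBL2, over A375), -0.069 to 0.24 (RBL1, over A375), -0.24 to 0.37 (LIN9, over SKMEL28), -0.12 to 0.17 (RBL1, over AU565) and -0.65 to 0.040 (LIN52, over SKMEL28). Those of A375 ran from -0.17 to 0.26 (LIN37, over SKMEL28), -0.077 to 0.59 (LIN54, over SKBR3), -0.14 to 0.23 (TFDP1, over SKBR3), -0.11 to 0.0061 (RBL1, over AU565) and -0.0033 to 0.045 (RBL2, over AU565), and those of SKMEL28 over AU565 from -0.31 to 0.38 (LIN52) and -0.12 to 0.0023 (FOXM1). The within-library ratios kept their direction with 2 added to each count and without any 1 library. Untreated comparisons called numbered 60 to 72 with a library left out.

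Replicate numbers gave no pairing: deviations of same-numbered libraries correlated at -0.055, 0.011, -0.007, 0.068 and -0.029 in 94T778, A375, SKMEL28, SKBR3 and AU565. With a replicate block the members called were the same in number, 6, 6, 5, 6 and 6 lower and 1, 1, 2, 1 and 2 higher, and genes called lower in AU565 were 4784, against 4779 without it.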

Other observations

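C12orf32, listed in RefSeq as RHNO1, encodes a partner of the checkpoint clamp and starts next to FOXM1 on the other strand, with no other gene start between them in GENCODE 29. It was called lower in all 5 lines, as were 4.62% of all genes, and was chosen after its values had been seen. Its log2 changes in 94T778, A375, SKMEL28, SKBR3 and AU565 were -0.72 ± 0.12, -1.08 ± 0.14, -0.75 ± 0.14, -1.72 ± 0.16 and -1.71 ± 0.14 (edgeR adjusted p at most 1.9e-05), where FOXM1 stood at -2.87, -2.13, -2.92, -4.64 and -4.78.

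Among the CDK inhibitors upstream of the pocket proteins, CDKN1A, which encodes p21, rose by 0.92 in 94T778 and 1.14 in A375, fell by 1.22 in SKMEL28 (edgeR adjusted p at most 5.8e-07) and stood at 0.13 in SKBR3 and -0.06 in AU565, where it was not called. CDKN1B, which encodes p27, rose by 0.61, 0.78, 0.69 and 0.57 in 94T778, SKMEL28, SKBR3 and AU565 and fell by 0.32 in A375 (edgeR adjusted p at most 0.0281). Both lie outside the rule for named genes and were chosen after their values had been seen.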
